A study of Homo sapiens with 18 samples.

Results

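VIM, NDRG4, BMP3, TFPI2, TMEFF2, SEPTIN9 (formerly SEPT9), SDC2, BCAT1, IKZF1 and EYA4 are 10 genes whose DNA methylation is used or has been proposed as a marker of colorectal cancer. They were listed by name, with earlier results of these data known, and they are 10 of 20163 protein-coding genes annotated on GRCh37. Each gene was measured in windows of 1000 bp on either side of its 5′ end and of each further transcript 5′ end more than 1000 bp away, which gave 25 windows out of 27772 for all genes. SEPTIN9 has 10 of these windows, NDRG4 has 3, VIM, BCAT1, IKZF1 and EYA4 have 2 each, and the other genes have 1.

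In a study set up to compare capture kits, genomic DNA of 3 established human cell lines was analysed. HCT15 is a colorectal carcinoma line, whereas DU145 and PC3 are prostate cancer lines, and no untreated or normal tissue was included. Reduced representation bisulfite sequencing (RRBS), which reads methylation at single CpGs near sites of the enzyme MspI, was done once per line. Fragments of the same lines were also captured with the 5 kits MethylMagnet, MethylCollector, MethylCollector Ultra, MethylCap and MethylMiner, each using a methyl-CpG binding domain, and sequenced (MBD-seq, 15 libraries). The labels give ATCC as the source of all 3 lines, whereas the study's methods give another supplier and a later passage for DU145. Each comparison below sets 1 line against 2 lines, and tumour type cannot be told apart from any other property of these lines.

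Most gene 5′ ends rich in CpGs are free of methylation in normal cells, and dense methylation over such an end is commonly found together with a silent gene. In colorectal cancer many of these ends become methylated, and the altered DNA can be looked for in stool or blood. The genes themselves have little in common. VIM encodes the intermediate filament protein vimentin, SEPTIN9 a cytoskeletal GTPase, SDC2 a cell surface heparan sulfate proteoglycan, TMEFF2 a transmembrane protein with EGF-like and follistatin-like domains and TFPI2 an inhibitor of serine proteases. BMP3 encodes a ligand of the TGF-β family, IKZF1 the lymphoid transcription factor Ikaros, EYA4 a transcriptional coactivator with phosphatase activity, BCAT1 the cytosolic branched chain aminotransferase and NDRG4 a member of the N-myc downstream regulated family.

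The following stretches of 160 bases show what the RRBS values refer to. They are GRCh37 reference sequence outside every annotated exon, written 5′ to 3′ on the strand of the gene, and capitals mark the CGs with a coverage of at least 10 in all 3 lines. The first 4 lie upstream of a 5′ end and were taken from the windows with at least 4 such CGs in 160 bases within 500 bases of the end. Not every window that met this rule is shown. Among the 4 windows shown, VIM end 2 had the largest difference between HCT15 and the mean of the prostate lines, and SEPTIN9 end 5 the smallest. The last stretch, in the first part of EYA4 downstream of its second 5′ end, was chosen after its values were seen because PC3 changes from unmethylated to methylated next to it.
VIM end 2, chr10:17271027-17271186, plus strand, -250 to -91 bp: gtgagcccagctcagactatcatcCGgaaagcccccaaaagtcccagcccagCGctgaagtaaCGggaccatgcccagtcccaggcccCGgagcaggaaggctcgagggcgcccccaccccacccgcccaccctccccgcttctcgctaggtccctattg
TMEFF2 end 1, chr2:193059684-193059843, minus strand, -184 to -25 bp: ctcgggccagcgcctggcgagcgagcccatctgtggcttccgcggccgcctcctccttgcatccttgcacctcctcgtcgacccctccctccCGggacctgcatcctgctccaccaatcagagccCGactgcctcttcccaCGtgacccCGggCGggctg
IKZF1 end 1, chr7:50343241-50343400, plus strand, -423 to -264 bp: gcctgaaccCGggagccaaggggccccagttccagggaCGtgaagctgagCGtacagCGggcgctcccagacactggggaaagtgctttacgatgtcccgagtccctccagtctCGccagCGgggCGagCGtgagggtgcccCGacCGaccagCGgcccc
SEPTIN9 end 5, chr17:75368807-75368966, plus strand, -465 to -306 bp: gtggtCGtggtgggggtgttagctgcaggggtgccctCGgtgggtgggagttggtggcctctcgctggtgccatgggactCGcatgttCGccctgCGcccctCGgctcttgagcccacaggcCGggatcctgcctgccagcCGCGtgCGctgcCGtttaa
EYA4 end 2, chr6:133562979-133563138, plus strand, 255 to 414 bp: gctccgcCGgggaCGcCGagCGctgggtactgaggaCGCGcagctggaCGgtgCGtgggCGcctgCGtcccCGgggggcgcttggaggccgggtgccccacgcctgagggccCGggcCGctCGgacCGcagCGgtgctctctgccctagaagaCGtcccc

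In the VIM stretch 4 of 9 CGs were measured. The CG at -198 bp was methylated in 100% of reads in HCT15, 4.3% in DU145 and 7.7% in PC3. The one at -187 bp read 94.0%, 0.0% and 0.0%. The other 2 measured CGs, at -226 and -162 bp, lie in the sequence CCGG and read 100%, 54.0% and 44.4%, and 100%, 46.2% and 46.2%. In the prostate lines the CGs outside CCGG were thus near 0% and those in CCGG, the site that MspI cuts, were intermediate.

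The same was seen in genes that every cell uses. In the windows of 10 housekeeping genes the median methylation level of 388 CpGs outside CCGG was 0.0% in each line, whereas that of 78 CpGs at CCGG was 52.8% in HCT15, 52.3% in DU145 and 53.1% in PC3. In the marker windows 126 of 605 CpGs lie at CCGG, with medians of 95.1%, 68.8% and 66.9%, against 95%, 11.1% and 6.2% at the 479 other CpGs. What gives rise to the intermediate values at CCGG was not tested. All comparisons below are given for all CpGs, and the values without CCGG, an alternative added after seeing the data, stand beside them where they matter.

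RRBS gave values for all 10 genes. Of the 25 windows, 20 had at least 5 CpGs with a coverage of at least 10 in all 3 lines, and the median coverage of these windows lay between 12 and 171 reads. The 5 other windows, the second end of IKZF1 and ends 3, 4, 7 and 10 of SEPTIN9, had between 0 and 4 such CpGs. HCT15 was at least 25 percentage points above both prostate lines in 11 of the 20 windows, belonging to 9 of the 10 genes, and at least 25 points below both in 1 window, SEPTIN9 end 8. Over the windows of all genes the corresponding shares were 9.61% and 0.745% of 16238 windows. The median difference between HCT15 and the mean of the prostate lines was 42.34 points for the 20 marker windows and -0.1 points for all windows. Without CpGs at CCGG the counts were 11 and 1 of 19 windows, with shares of 10.7% and 0.72% over all genes.

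**Figure D1:**
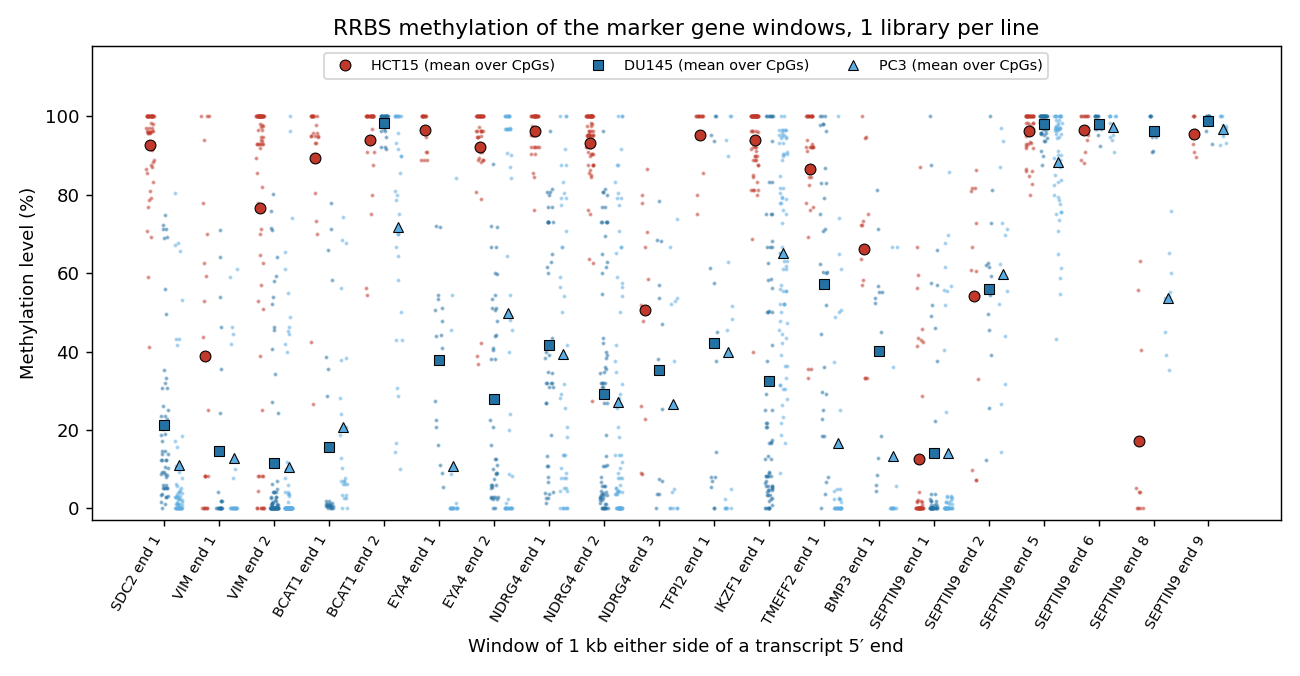
RRBS methylation level (%) in the 20 windows with at least 5 CpGs covered in all 3 lines, with a small point for each CpG and a large symbol for the mean of each line. HCT15 (red circles) lies above DU145 (dark squares) and PC3 (light triangles) in all windows of 8 genes and at BCAT1 end 1. At BCAT1 end 2 it lies between them, and for SEPTIN9 the means of most windows lie together and end 8 runs the other way.

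Per CpG, the reads of HCT15 were compared with those of DU145 and of PC3 by two-sided Fisher's exact tests with Benjamini-Hochberg adjustment over all 1569113 CpGs. A CpG was called when both adjusted p-values were below 0.05 and both differences were at least 25 points in the same direction. Such tests compare libraries, since each line was sequenced once, and treat each counted read as separate. HCT15 was higher at 258 of 605 marker CpGs (42.6%) and lower at 8 (1.32%), against 9.42% and 0.817% of the CpGs in the windows of all genes and 5.04% and 2.31% of all CpGs of the genome. Without CCGG, HCT15 was higher at 229 of 479 CpGs (47.8%), against 10.5%. All 8 lower CpGs belong to SEPTIN9.

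SDC2 showed the most uniform difference. Its window (chr8:97505041-97507041, plus strand) had a mean methylation level of 92.6% ± 11.5 in HCT15, 21.3% ± 20.9 in DU145 and 11.0% ± 20.3 in PC3 (SD over 56 CpGs). HCT15 was called higher at 54 of the 56 CpGs, and at 47 of 47 outside CCGG. The measured CpGs lie within 500 bp of the 5′ end on either side, 25 before the gene and 31 in its first exon. Upstream, the CpGs outside CCGG averaged 91.4% in HCT15, 8.7% in DU145 and 1.0% in PC3. Downstream they averaged 93.2%, 17.6% and 4.6%, so that DU145 held more methylation within the exon than before it. Pooled over reads, the window was methylated at 91.3% (89.9 to 92.5%), 24.3% (23.1 to 25.6%) and 13.7% (12.9 to 14.6%) in the order above, with 95% Wilson intervals. A read enters these sums at each CpG it covers, so the intervals are too narrow even for counting error. They say nothing of the spread between cultures.

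In VIM the difference was found in separate parts of the measured region. The window at the 5′ end of transcript VIM-201 (end 2, chr10:17270277-17272277, plus strand), averaged 76.7% ± 36.0 in HCT15, 11.7% ± 22.7 in DU145 and 10.5% ± 23.4 in PC3 (74 CpGs), and 55 of these CpGs were called higher. In the 500 bp downstream of the end, the 38 CpGs outside CCGG averaged 97.6% in HCT15, against 2.5% and 1.8%, and none of them was below 85.7% in HCT15. More than 500 bp upstream, 12 CpGs averaged 14.5%, 7.5% and 4.3%, and more than 500 bp downstream, 11 CpGs averaged 53.4%, 5.2% and 4.5%. Accordingly, the window around the annotated gene end further upstream (end 1, transcript VIM-209), which overlaps that of end 2, averaged 39.0%, 14.6% and 12.9% over 21 CpGs, of which 8 were called higher. Of these, 4 lie from -8 to 60 bp of end 1, where HCT15 read between 25% and 62.5% and the prostate lines at most 2.0%, and the other 4 are those upstream of end 2 shown above. Its difference of 24.4 points to DU145 was the value just outside the threshold. The difference to the mean of the prostate lines, 25.26 points, depended on which CpGs entered, being 14.0 points with 500 bp on either side, 63.95 with 2000 bp and 51.05 at a coverage of at least 20. VIM-AS1, an antisense RNA gene, overlaps both windows.

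**Figure D2:**
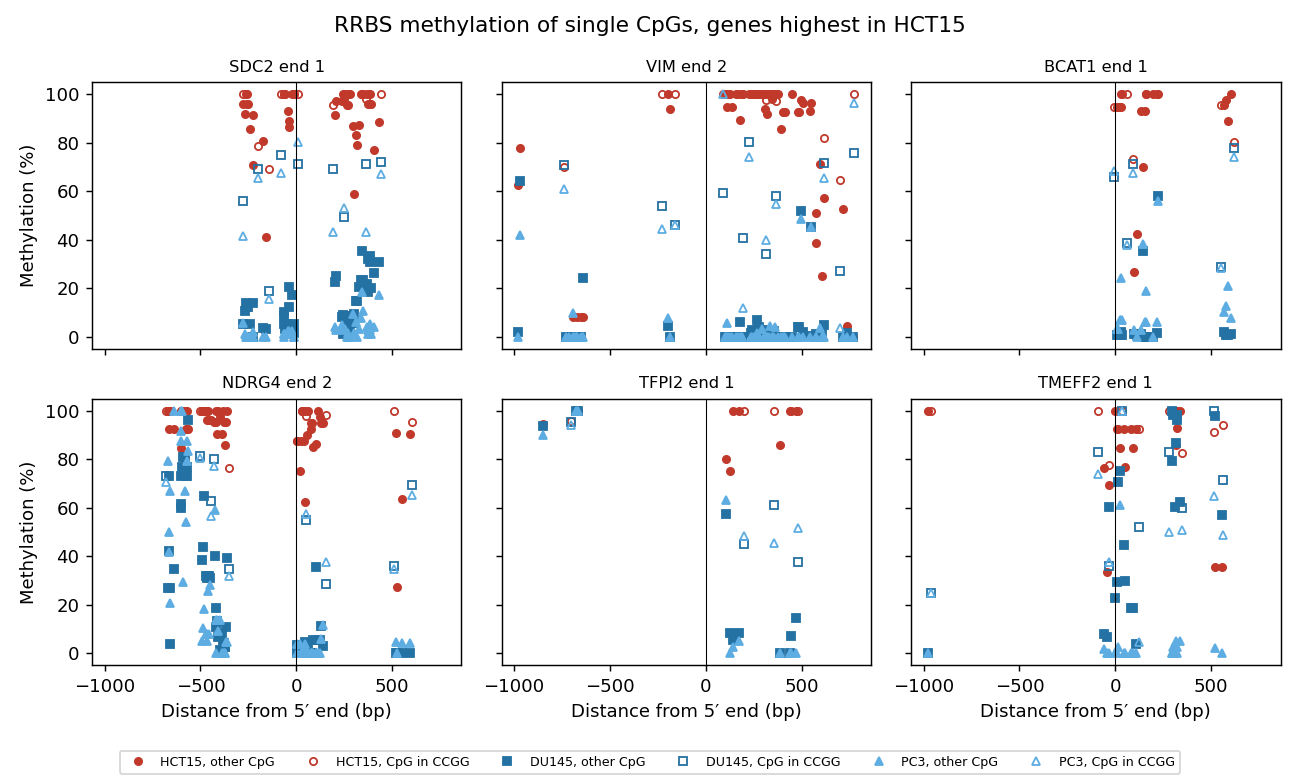
RRBS methylation level (%) of single CpGs against the distance (bp) from the 5′ end for 6 windows, with HCT15 as circles, DU145 as squares and PC3 as triangles, and open symbols for CpGs in CCGG. Most HCT15 symbols near the 5′ ends lie in the upper part of the 6 windows, with single CpGs far lower, as in BCAT1 (26.7%) and TMEFF2 (33.3%), whereas many open symbols of the prostate lines lie at intermediate values above the filled symbols next to them.

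BCAT1 behaved differently at its 2 ends. The window at the gene end (end 1, chr12:25101035-25103035, minus strand) averaged 89.3% ± 18.5 in HCT15, 15.6% ± 26.2 in DU145 and 20.7% ± 23.2 in PC3 over 25 CpGs, of which 22 were called higher. Without CCGG the means were 89.4%, 5.4% and 12.0%. The alternative end of transcripts BCAT1-204 and BCAT1-205 (end 2, chr12:25055009-25057009) was methylated in all 3 lines, at 94.0% ± 12.0 in HCT15, 98.4% ± 2.5 in DU145 and 71.8% ± 28.9 in PC3 over 31 CpGs. None of its CpGs was called between HCT15 and both prostate lines. DU145 exceeded PC3 there at 12 CpGs in the same kind of test between the prostate lines, which was added after seeing the data.

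NDRG4 was methylated in HCT15 at its 2 upstream ends, which overlap. End 2 (chr16:58496928-58498928, plus strand) averaged 93.3% ± 11.1 in HCT15, 29.1% ± 29.2 in DU145 and 27.1% ± 33.1 in PC3 over 71 CpGs, and 51 CpGs were called higher. The prostate lines changed along this window. More than 500 bp upstream, 16 CpGs outside CCGG averaged 96.6% in HCT15, 60% in DU145 and 71.1% in PC3. In the 500 bp before the end they averaged 96.8%, 22.6% and 10.6% over 22 CpGs, and in the 500 bp after it 90.9%, 4.5% and 1.4% over 20 CpGs. End 1, whose 43 measured CpGs are shared with end 2, averaged 96.4%, 41.6% and 39.3%. At the distant end 3 (chr16:58532951-58534951) the means were 50.6%, 35.3% and 26.6% over 13 CpGs, of which 3 were called higher. Without CCGG they were 36.0%, 17.8% and 9.5% over 8 CpGs. The difference of end 3 to the mean of the prostate lines was 19.62 points over all CpGs. It was 33.65 points at a coverage of at least 6 and 35.01 points with all CpGs covered in each line.

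In TFPI2 (chr7:93519065-93521065, minus strand) the means were 95.4% ± 8.3 in HCT15, 42.2% ± 39.7 in DU145 and 40% ± 41.4 in PC3 over 15 CpGs. The large SDs of the prostate lines come from 2 groups of CpGs. More than 500 bp upstream, 3 CpGs outside CCGG averaged 98.1%, 97.9% and 96.7% and did not differ by 25 points. In the 500 bp downstream of the end, 8 CpGs averaged 92.6%, 12.6% and 8.8%, and 10 of all 11 CpGs there were called higher in HCT15. The window also overlaps GNGT1 and the divergent RNA gene TFPI2-DT, both on the plus strand.

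In TMEFF2 and BMP3 the prostate lines differed from each other, with DU145 between HCT15 and PC3. TMEFF2 (chr2:193058659-193060659) averaged 86.7% ± 18.9 in HCT15, 57.3% ± 33.1 in DU145 and 16.8% ± 27.8 in PC3 over 32 CpGs. Without CCGG the means were 84.2%, 53.2% and 3.6%. HCT15 exceeded PC3 at 29 CpGs and DU145 at 14, and DU145 exceeded PC3 at 18. For HCT15 against a single prostate line, here and below, no share over all genes was taken. Over the windows of all genes DU145 exceeded PC3 at 5.56% of CpGs, and PC3 exceeded DU145 at 4.3%. In the stretch shown above, the CG at -58 bp was methylated in 76.2% of reads in HCT15, 8.0% in DU145 and 1.7% in PC3, whereas the CG at -30 bp read 69.2%, 60.4% and 0.0%. Thus DU145 was near PC3 at one CG and near HCT15 at another within the same stretch. More than 500 bp downstream the order of HCT15 and DU145 was turned, with 35.7%, 77.4% and 1.2% at 2 CpGs outside CCGG, and 1 CpG of the window was called lower in HCT15 than in DU145.

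BMP3 (chr4:81950862-81952862, plus strand) had measured CpGs only in the 500 bp downstream of its end, within its first exon. Their means were 66.3% ± 23 in HCT15, 40.1% ± 26.5 in DU145 and 13.5% ± 25.6 in PC3 over 13 CpGs. Without CCGG they were 60%, 31.3% and 0.6%. The difference of 26.2 points to DU145 was the smallest of the 11 windows past the threshold. HCT15 was called higher than both lines at 5 CpGs, and DU145 exceeded PC3 at 6.

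EYA4 and IKZF1 showed the opposite order of the prostate lines over a part of their windows. At the gene end of EYA4 (end 1, chr6:133560652-133562652, plus strand) the means were 96.6% ± 4.7 in HCT15, 37.8% ± 20.4 in DU145 and 10.8% ± 24.4 in PC3 over 18 CpGs. The window of end 2, which holds the same 18 CpGs and 27 further downstream, averaged 92.3% ± 15.2, 27.9% ± 25.3 and 49.9% ± 44.8. In the 500 bp before end 2, PC3 read 0.0% at each of 8 CpGs outside CCGG, where HCT15 averaged 98.6% and DU145 33.0%. In the intronic stretch shown above, 14 CpGs outside CCGG averaged 87.2% in HCT15, 6.0% in DU145 and 95.2% in PC3. Between these neighbouring parts PC3 therefore went from the lowest of the lines to about the level of HCT15, and DU145 from intermediate to nearly unmethylated. HCT15 was called lower than PC3 at 2 CpGs only, at 293 bp (42.3% against 96.7%) and 408 bp (36.8% against 96.8%). PC3 exceeded DU145 at 18 CpGs of this window and DU145 exceeded PC3 at 9, and HCT15 was called higher than both at 21.

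The window of IKZF1 (end 1, chr7:50342664-50344664, plus strand) averaged 94.0% ± 9.3 in HCT15, 32.6% ± 34.0 in DU145 and 65.1% ± 25.6 in PC3 over 73 CpGs. HCT15 exceeded DU145 at 52 CpGs, PC3 at 25 and both at 20. In the 500 bp downstream of the end, 21 CpGs outside CCGG averaged 97.2%, 4.8% and 83.6%, and PC3 exceeded DU145 at all 24 CpGs there. More than 500 bp upstream the order was turned, with 86.2%, 94.5% and 55.3% at 8 CpGs. The upstream stretch shown above lies between these parts. In it DU145 read 100% at -373 bp and 25% at -270 bp, and PC3 read 88.9% and 16.7%, while HCT15 read 100% and 81.2%. The difference between HCT15 and the higher prostate line was 29.0 points for the whole window.

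**Figure D3:**
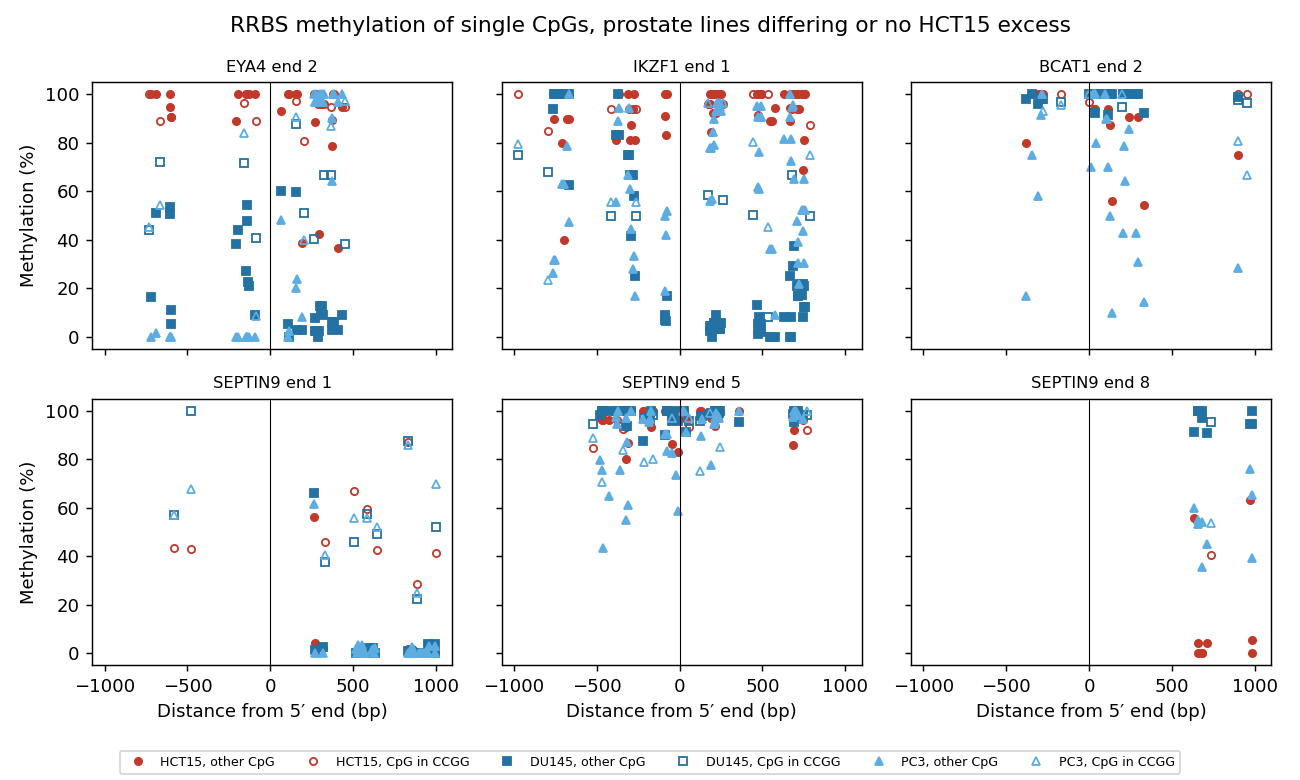
RRBS methylation level (%) of single CpGs against the distance (bp) from the 5′ end for 6 windows, with HCT15 as circles, DU145 as squares and PC3 as triangles, and open symbols for CpGs in CCGG. PC3 rises to HCT15's level downstream of EYA4 end 2 and IKZF1 end 1, the 3 lines lie together at SEPTIN9 ends 1 and 5, and HCT15 is the lowest at SEPTIN9 end 8.

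SEPTIN9 was the only gene without a window in which HCT15 was above both prostate lines by 25 points, although 6 of its 10 windows had enough CpGs. Its outermost end (end 1, chr17:75275651-75277651, plus strand) was unmethylated in each line outside CCGG, with means of 2.1%, 2.6% and 2.6% over 33 CpGs. The CpG-dense internal end of transcript SEPTIN9-202 (end 5, chr17:75368272-75370272) was methylated in each line, at 96.2% ± 4.9 in HCT15, 98.0% ± 2.8 in DU145 and 88.5% ± 13.5 in PC3 over 54 CpGs. All 54 CpGs were at least 80% methylated in HCT15, and 41 were in PC3. In the stretch shown above, PC3 ranged from 43.2% at -460 bp to 100% at -370 bp, whereas no CG outside CCGG was below 80% in HCT15 or 93.8% in DU145. PC3 was lower than HCT15 at 4 CpGs of this window and lower than DU145 at 7, and none differed between HCT15 and both prostate lines.

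Ends 6 and 9 of SEPTIN9 were methylated to between 95.5% and 98.8% in each line, and end 2 had means of 54.1%, 55.9% and 59.9%. In the 500 bp downstream of end 2, 3 CpGs outside CCGG averaged 8.1%, 29.2% and 24.2%. Further downstream, 4 averaged 76.1%, 63.5% and 86.9%. End 8, of transcripts SEPTIN9-208 and SEPTIN9-236 (chr17:75445819-75447819), had 17.3% ± 25.4 in HCT15, 96.4% ± 3.6 in DU145 and 53.7% ± 12.0 in PC3 over 10 CpGs. Pooled over reads the levels were 21.4% (95% Wilson interval 16.9 to 26.7%), 96.2% (93.5 to 97.8%) and 52.4% (48.0 to 56.8%). These intervals too count a read at each CpG it covers and are too narrow. All 10 CpGs lie more than 500 bp downstream of the end. HCT15 was called lower than both prostate lines at 6 of them and lower than DU145 at 9. One CpG at each of ends 2 and 10 made up the 8 lower CpGs of the gene.

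The MBD-seq depth gave a second measure in the same windows. Fragments overlapping a window were counted and scaled to the library's total, which ranged from 10040 to 7344098 fragments. Over all 25 windows HCT15 had the most fragments per 1000000 fragments of the library with 4 of the 5 kits. These were 567, 299 and 318 for HCT15, DU145 and PC3 with MethylMagnet, 486, 439 and 259 with MethylCollector, and 260, 132 and 143 with MethylCollector Ultra. With MethylCap they were 112, 97.1 and 109, and with MethylMiner the order was turned, at 36.1, 57.5 and 58.3. The MethylMiner libraries also differed from the rest in a check of the labels. At CpGs methylated in a single line by RRBS, 12 of the 15 libraries were densest over those of the line named, and the 3 exceptions were those of MethylMiner. Over these 3 sets of CpGs the HCT15 library of MethylMiner ranged only from 0.992 to 1.15 fragments per CpG, against 0.450 to 2.89 with MethylCap. The DU145 and PC3 libraries of MethylMiner ranged from 0.465 to 0.638 and from 0.372 to 0.600. The study itself reported that this kit's profile resembled the background of all loci read by RRBS. Results are therefore also given without MethylMiner. The DU145 libraries of MethylMagnet, MethylCollector and MethylCollector Ultra held 3, 13 and 4 fragments in these windows, so that their zeros carry little information. For the DU145 MethylMagnet library a count of 0 allows 3 fragments, or 299 on this scale.

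For each window, the share of HCT15 in the scaled fragments of a kit's 3 libraries was averaged over the kits and compared with all relabellings of the libraries within kits (exact permutation test, two-sided, smallest p 0.0082 with 5 kits). The 5 captures of a line share its DNA, so p-values refer to captures and not to separate cultures. HCT15's share was higher at an unadjusted p below 0.05 in 5 of 25 windows and lower in 1, against 9.6% and 0.411% of 17740 windows of all genes. None of the 25 passed after Benjamini-Hochberg adjustment over all windows, for which the smallest adjusted p was 0.4385. With so few relabellings, a window could pass only if a large part of all windows reached a p near the smallest. This outcome therefore says little about single windows. The median share was 55.02% in the marker windows and 43.99% in all windows. The latter is also above equal shares of the 3 lines, so higher scaled values in HCT15 were not particular to the marker windows. The 5 windows were those of BMP3, EYA4 end 1, VIM ends 1 and 2 and SEPTIN9 end 4. Their number was 1 without MethylCollector or without MethylCollector Ultra, 2 without MethylCap and 6 without MethylMiner. EYA4 end 1 and VIM end 1 had fragments with only 4 kits. Leaving out 1 of these left 3 kits, with which the exact permutation test can give no p below 0.0741. Part of the change was thus fixed in advance.

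Since the libraries of a kit differ in depth, the following values are fragments in the window per 1000000 fragments of the library, for HCT15, DU145 and PC3 in this order. In VIM end 2 HCT15 was the highest with 4 of the 5 kits, and the prostate lines gave no fragment with MethylMagnet, MethylCollector and MethylCollector Ultra, against 50.02, 79.1 and 30.6 in HCT15. The values were 8.23, 0.0 and 1.05 with MethylCap, and 1.77, 3.72 and 1.43 with MethylMiner, where DU145 was the highest. HCT15's share was 82.8% (exact permutation p 0.0165, adjusted 0.4385) and 97.2% without MethylMiner. For SDC2 the values with MethylCap were 6.69, 1.21 and 0.0. HCT15 was not the highest with MethylCollector Ultra (19.9, 33.0 and 0.0, DU145 with a single fragment) or MethylMiner (1.36, 2.03 and 4.3). The share was 65.8% (exact permutation p 0.0576), or 77.8% without MethylMiner (exact permutation p 0.0494). For BCAT1 end 1 MethylCap gave 5.4, 0.0 and 0.0, MethylMiner 1.36, 1.69 and 0.956, and MethylMagnet a fragment of PC3 alone. The share was 66.8% (exact permutation p 0.1564).

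EYA4 end 1 had a share of 86.4% (exact permutation p 0.0247), and HCT15 was the highest with each of the 4 kits that gave a fragment there. At EYA4 end 2, where RRBS found PC3 methylated, MethylCap gave 5.4, 0.0 and 1.05, and MethylMagnet 0.0, 99.6 and 12.4, with a single fragment of DU145. The share was 56.1%. TMEFF2 had a share of 57.7%, or 69.9% without MethylMiner (exact permutation p 0.0247), and HCT15 was the highest with 4 kits. BMP3 had 68.9%, or 80.9% without MethylMiner, and HCT15 was the highest with 3 kits, while DU145 exceeded it with MethylCap (5.4, 7.29 and 0.0). For IKZF1 end 1 the share was 29.7% and the kits were divided. HCT15 was above PC3 with MethylCollector (48.9, 33.8 and 11.8) and MethylCollector Ultra (19.9, 33.0 and 13.8). With these kits the DU145 values rest on a single fragment each, as does the PC3 value with MethylCollector. HCT15 was below PC3 with MethylMagnet (83.4, 0.0 and 103), MethylCap (2.57, 7.29 and 13.7) and MethylMiner (0.953, 4.06 and 3.35). NDRG4 end 2 had a share of 51.3%, or 58.4% without MethylMiner (exact permutation p 0.0247), and TFPI2 55.7% or 67.4%.

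At SEPTIN9 end 5 HCT15 was the highest with no kit, and its share was 28.0%. The values were 11.3, 17.0 and 23.2 with MethylCap, and 117, 0.0 and 120 with MethylMagnet. At end 8 HCT15 was the lowest of the lines with each of the 5 kits. It gave no fragment with MethylMagnet, MethylCollector and MethylCollector Ultra, where DU145 gave a single fragment each and PC3 gave 2, 1 and 8. For the HCT15 MethylMagnet library a count of 0 allows 3 fragments, or 50.02 on this scale, above the 8.26 of PC3. The values were 0.257, 4.86 and 12.6 with MethylCap and 2.32, 2.71 and 3.35 with MethylMiner. HCT15's share there was 5.8% (exact permutation p 0.0082, adjusted 0.4385), the smallest p this test can give, and 0.4% without MethylMiner. The direction at end 8 was the same with RRBS.

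Within single libraries the number of fragments followed the RRBS level to different extents. With MethylCap the medians in windows at least 80% methylated in the line, between 30 and 80%, and at or below 30% were 21.0, 21.0 and 2.5 fragments in HCT15 (13, 5 and 2 windows), 7.0, 3.0 and 0.0 in DU145 (5, 8 and 7 windows) and 12.0, 1.0 and 0.5 in PC3 (3, 7 and 10 windows). With MethylMiner they were 10.0, 12.0 and 11.5 for HCT15, 11.0, 5.0 and 6.0 for DU145 and 9.0, 4.0 and 3.5 for PC3. Across the 20 windows Spearman's rho between RRBS level and fragments was 0.3, 0.75 and 0.55 for the 3 lines with MethylCap and -0.02, 0.24 and 0.38 with MethylMiner. With the other kits it ranged from -0.02 to 0.79. These windows share libraries and differ in the number of CpGs, and some overlap, so the values are a description only.

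**Figure D4:**
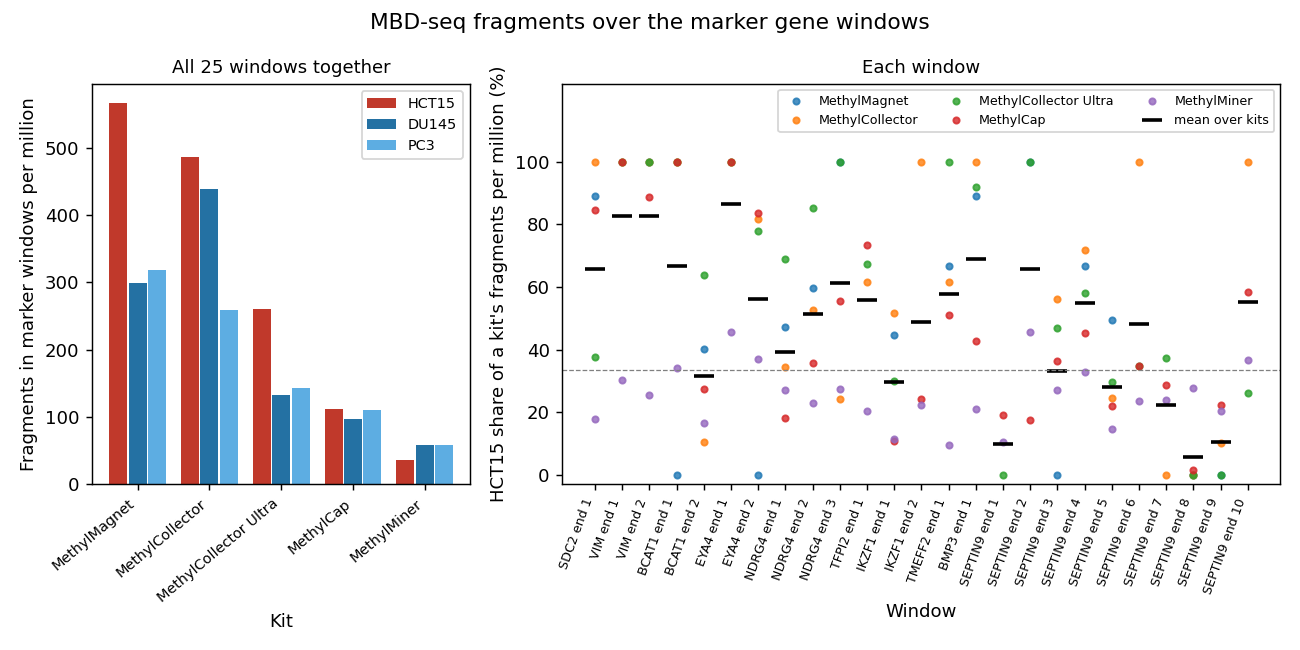
MBD-seq fragments over the marker windows. Left, fragments in the 25 windows per 1000000 fragments of each library, by kit and cell line. Right, HCT15's share (%) of the scaled fragments of a kit's 3 libraries in each window, with a point per kit, a black dash for the mean over kits and a dashed line at equal shares, where SEPTIN9 end 8 has the lowest mean (5.8%) and EYA4 end 1 the highest (86.4%).

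Other genes give the scale of these differences. Among 8 genes of panels for the CpG island methylator phenotype of colorectal cancer, 7 of 14 windows with a value were past the threshold in HCT15, in 4 genes, and the median difference to the mean of the prostate lines was 26.6 points. In CRABP1, a retinoic acid binding protein, the means were 86.0%, 28.9% and 26.3% in HCT15, DU145 and PC3. Of 22 other proposed colorectal markers, 10 genes had a window past the threshold (10 of 24 windows, median difference 40.7 points), led by SPART with 88.3%, 4.3% and 9.9%. NPY and ADHFE1 were among those not past it, with 94.6%, 86.4% and 31.8%, and 98.1%, 98.7% and 17.6%. Of 13 genes proposed as prostate markers, 2 had a window higher in HCT15 and 2 a window lower in HCT15, with a median difference of 6.5 points over 17 windows. Higher were RARB, with 89.3%, 36.6% and 33.1% at end 2 and 88.7%, 33.4% and 47.1% at end 3, and HIC1, with 56.2%, 13.8% and 18.4% at end 1. Lower were GSTP1, a glutathione transferase, with 12.9%, 60.6% and 39.8%, and PTGS2, a cyclooxygenase, with 24.8%, 62.6% and 100%. None of the 11 windows of 10 housekeeping genes was past the threshold in either direction.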

How the data were processed

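RRBS was done on 3 libraries and MBD-seq on 15, 1 per kit and cell line. For RRBS, each deposited row gives 2 counts for a CpG, the methylated reads and the total reads, summed over the strands and never below a total of 6, but the aligner of these reads is not given in the sources used here. The signal the authors deposited for MBD-seq is the unscaled depth (coverage) of uniquely mapped fragments. Read pairs were mapped with Bowtie to hg19 (GRCh37) and duplicates were counted once, according to the submitters' processing notes and the study's methods. The 10 genes and the comparison lists were chosen with earlier results of these data known.

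Gene ends were taken from GENCODE 44 on GRCh37. A window's methylation level is the mean over its CpGs that had 10 or more reads in all 3 lines, and at least 5 such CpGs were required. CpGs were compared by Fisher's exact test. MBD-seq fragments were counted as the depth at the first base of a window plus all rises within it, so that a start at the same base as an end is missed. Windows with a fragment in at least 3 kits were tested. Windows of 500 and 2000 bp, coverages of at least 6 and 20, a threshold of 40 points, pooled reads, all CpGs of each line, gene ends alone, mean depth, scaling to the windows of all genes and leaving out a line or kit were tried as alternatives. Named genes were all 10 members and at most 3 per comparison list and direction with the largest difference, beside which NPY and ADHFE1 were named after their values were seen. Counting error limits single CpGs, which may rest on as few as 10 counted reads. Totals could change abruptly between neighbouring CpGs. In NDRG4 end 2 they were 54, 188 and 78 in HCT15, DU145 and PC3 at -456 bp, and 27, 94 and 39 at -451 bp. Whether fragments were counted more than once at some CpGs was not tested. Fisher's tests treat each count as a separate read, and their p-values would then be too small. The scripts were tested on simulated data and used numba 0.67.0, numpy 2.4.6, matplotlib 3.10.9, scipy 1.17.1 and pandas 2.3.3 under Python 3.11.15.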

Additional observations from a re-analysis of the deposited data

How the results depend on the processing

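The number of marker windows with HCT15 at least 25 points above both prostate lines was 11 as reported and lay between 8 and 13 under the alternatives, with 12 when DU145 and 11 when PC3 was left out. The single window with HCT15 lower, SEPTIN9 end 8, was not counted with windows of 500 bp, which hold none of its CpGs, at 40 points or with gene ends alone, so that these settings gave 0 windows. Higher CpGs numbered 155 at a coverage of at least 20, where fewer CpGs were tested, and lower CpGs 22 at a coverage of at least 6 and 5 at 40 points. Against a single prostate line, 298 to 318 CpGs were higher and 10 to 15 lower. The share over all genes was not taken for a single line, so these counts cannot be set against it. No window passed the MBD-seq test after adjustment under any alternative, including leaving out each kit (0 to 0). The smallest p of the exact permutation test is 0.0082 with 5 kits and 0.0247 with 4, so another outcome was hardly possible. No called difference changed sign. Without PC3 the uncalled differences of BCAT1 end 2 and SEPTIN9 end 5 went from 8.88 to -4.39 and from 2.97 to -1.81 points. Of the differences per window under these alternatives, 82 moved by more than the counting error of the reads and 93 did not. Of the HCT15 shares, 186 stayed on their side of an unadjusted p of 0.05, 21 lost it and 11 gained it. No paired analysis was possible because each group has a single library and the kits already form the blocks of the MBD-seq test. The depth of the DU145 libraries of 3 kits limits the MBD-seq shares, and 5 windows could not be judged by RRBS.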
